A study of Mus musculus with 2 samples.

Results

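Collagens are the main structural proteins of the extracellular matrix, and each gene of the family encodes 1 alpha chain of a triple helix. The genes described here are those whose mouse symbol is Col, a type number, the letter a and a chain number, which selected 44 of the 32285 genes counted. They comprised 11 fibrillar genes, 8 genes of basement membrane types and 25 genes of other types (beaded filament, network-forming, fibril-associated, transmembrane, anchoring fibril and unclassed). The selection used gene names only and no measured value.

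The data were single-cell RNA sequencing of cultured cells from the stromal vascular fraction (the non-fat cells of adipose tissue) of C57/BL6J mouse pups on postnatal day 0, both sexes together, with no genetic change or drug named. That day is from the sample labels, while the paper's methods give postnatal day 1. Subcutaneous white and interscapular brown fat were pooled over several pups, digested with collagenase (for longer in brown than in white), grown in the same serum medium and collected at confluency after 4 days. There was 1 library per depot, so no difference between depots or clusters could be tested, and culture, digestion time, library and depot cannot be told apart. Intervals are 95% intervals that cover counting error only.

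The white library held 5261 cells and 144451047 UMIs (unique molecular identifiers, each counting 1 captured transcript), and the brown library held 7009 cells and 205551320 UMIs. The authors' cluster labels were available here for the first 1999 precursor cells of each depot, with a median of 27204 UMIs per cell in white and 26900 in brown. These cells fell into 14 clusters of between 15 and 674 cells: white adipocyte precursor clusters wAPC 1 to 4, wCAPs (committed adipogenic precursors), wFAPLs (fibro-adipogenic progenitor-like cells) and differentiating wFAPLs, and brown bAPC 1 to 5, bCAPs and bFAPLs. The label tables call the APC clusters Early Preads W1 to W4 and B1 to B5, and these were taken here to be wAPC 1 to 4 and bAPC 1 to 5 by their numbers. UMIs were summed over the cells of a cluster and given per 1000000 UMIs of that cluster (CPM). The clusters had been made by the authors from the same counts, so ratios between clusters describe them and test nothing. A list of 5 precursor markers summed to between 830.2 and 1917 CPM in 13 clusters and to 352 CPM in the 15 differentiating wFAPLs, where 1 of the 5 had no UMI. Endothelial markers (5) summed to at most 18.9 CPM in every cluster. Other labelled cells were few (14 to 27 glial or myeloid cells of a depot and 8 brown myoblasts). In all, 9 barcodes occurred in both libraries, 3 of them among the labelled precursors.

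Fibrillar collagens form the banded fibrils of connective tissue, and types I and III are the main ones of skin and fat stroma. Type IV collagen forms the network of basement membranes, the sheet that surrounds each mature fat cell, and types XV and XVIII lie in or next to that sheet. Type VI collagen forms beaded filaments around fat cells, while fibril-associated types such as XII and XIV sit on the surface of fibrils.

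Collagen transcripts made up 1.68% of all UMIs in white precursor cells (95% Poisson interval 1.676 to 1.683) and 1.58% in brown (1.573 to 1.579). Among clusters the share was highest in wAPC 4 at 2.12%, bFAPLs at 1.99% and wFAPLs at 1.95%, and lowest in bAPC 3 at 1.21%, differentiating wFAPLs at 1.28% and bCAPs at 1.30%. Among the precursor clusters, genes of the G2/M phase of the cell cycle had their highest mean share in bAPC 3 and wAPC 3 (0.1144% and 0.1138% of a cell's UMIs). The part of the cell cycle in the collagen share was not tested. The wCAPs stood at 1.74%, above bCAPs, while both FAPL clusters were nearly level. Cells within a cluster varied widely: the quartiles were 1.61% and 2.24% in wFAPLs and 1.60% and 2.26% in bFAPLs, against 1.01% and 1.52% in bCAPs. Cells labelled as other types carried less, with 0.973% in 20 white glial cells, 1.06% in 22 brown glial cells and 0.391% in 8 brown myoblasts. Myeloid cells were taken here as a background, without a check that they make no collagen transcripts. They held 0.209% in white (14 cells) and 0.176% in brown (27 cells). The median myeloid cell held only 0.0318% and 0.0481%, so that a few cells carried most of it.

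**Figure D1:**
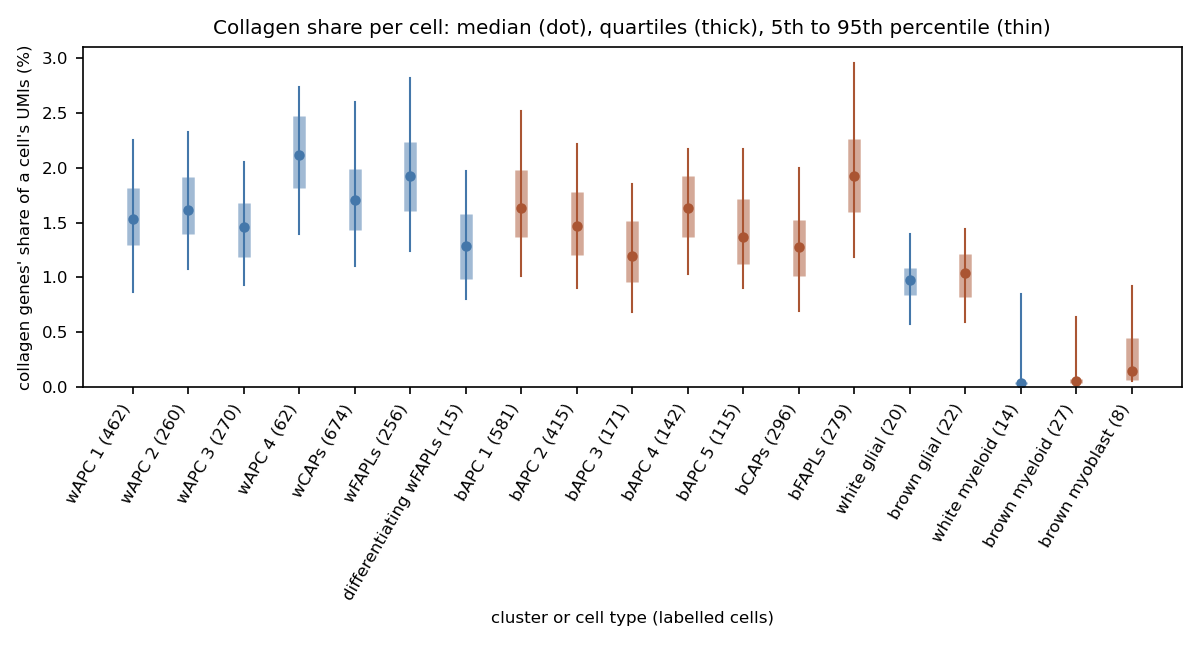
Share of each cell's UMIs that came from the 44 collagen genes (y axis, percent) by cluster or cell type (x axis, number of labelled cells in brackets), with white in blue and brown in red-brown; dots are medians over cells, thick bars quartiles and thin bars the 5th to 95th percentile. The medians of wAPC 4, wFAPLs and bFAPLs lie highest, and those of the myeloid cells lie near 0.

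Fibrillar genes supplied most of this RNA, namely 86.6% of collagen UMIs in white and 84.5% in brown precursors. Basement membrane genes gave 4.47% and 4.41%, and the other types 8.97% and 11.1%. The mix moved with the cluster: basement membrane genes reached 8.37% of collagen UMIs in wFAPLs and 10.3% in bFAPLs, against 3.38% in wCAPs and 4.20% in bCAPs. In differentiating wFAPLs they reached 22.6%, and fibrillar genes fell to 59.7%. Of the 44 genes, 20 reached 50 CPM in at least 1 cluster, 5 reached between 10 and 50 CPM, and 19 stayed under 10 CPM in every cluster. Among other types these 19 were Col6a4, Col6a5, Col6a6, Col9a1, Col9a2, Col9a3, Col10a1, Col13a1, Col17a1, Col19a1, Col20a1, Col22a1, Col25a1 and Col26a1, at most 6.57 CPM (Col6a6 in wAPC 2), and Col2a1, Col11a2, Col4a3, Col4a4 and Col4a6 made up the rest. The 3′ protocol counts a transcript once whatever its length, so levels of different genes are set side by side per transcript, although counting of intronic reads can add UMIs to long genes.

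**Figure D2:**
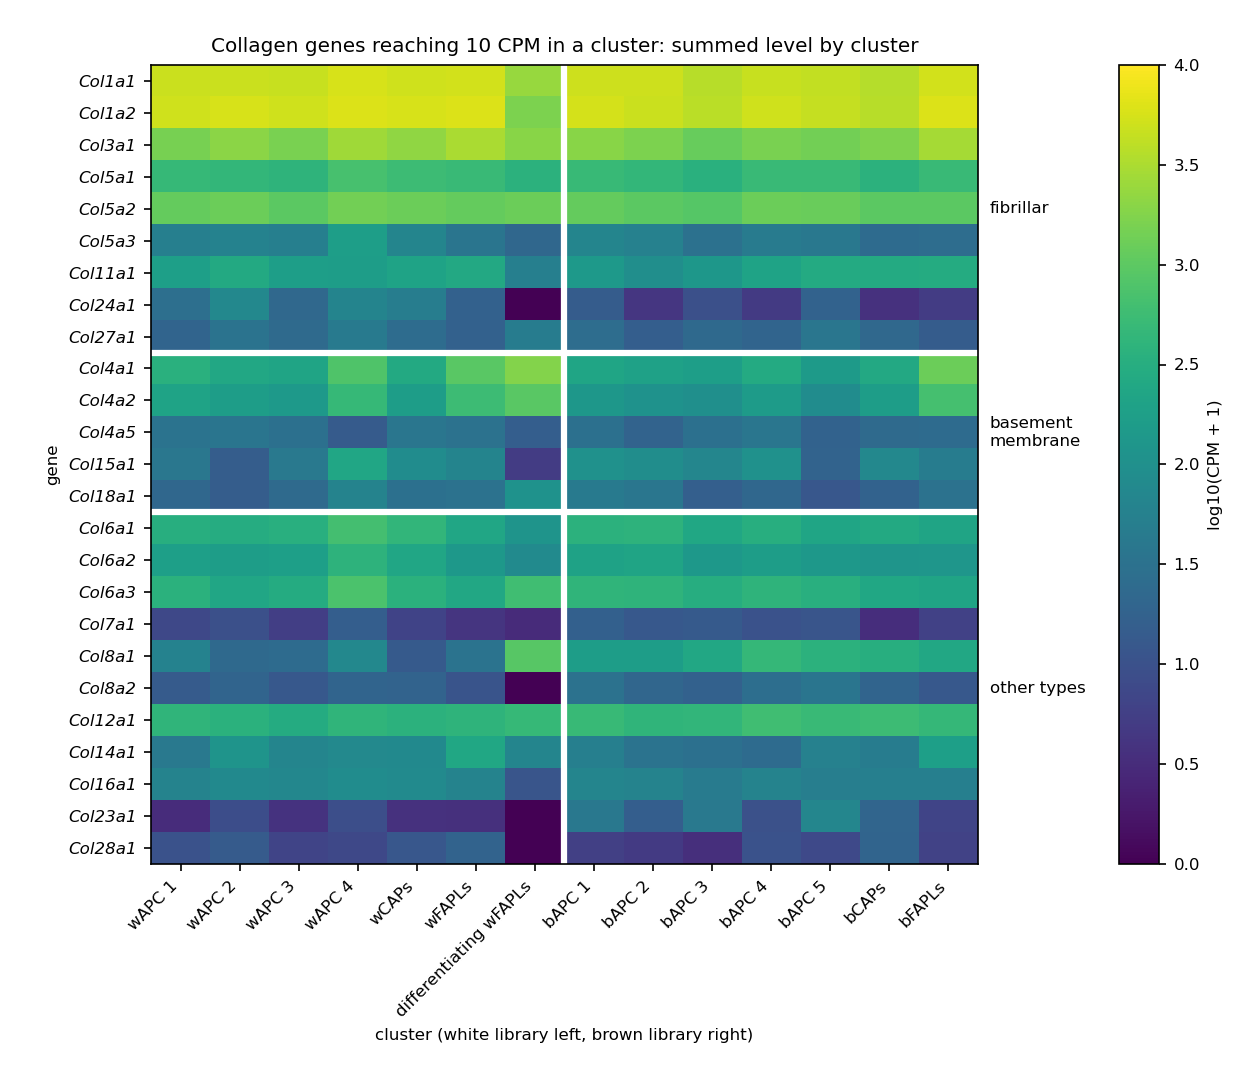
Summed level of the 25 collagen genes that reached 10 CPM in a cluster (rows, grouped by class) in the 14 clusters (columns, white left and brown right), on a colour scale of log10(CPM + 1). Type I genes are high throughout and lowest in differentiating wFAPLs, Col4a1 and Col4a2 stand out in both FAPL clusters and wAPC 4, and Col8a1 separates the brown from most white clusters.

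Among the fibrillar genes, Col1a1 and Col1a2 encode the chains of type I collagen and were the most abundant collagen transcripts. Col1a1 was at 4699.8, 4832, 4659.8 and 5670.5 CPM in wAPC 1 to 4, 5187 in wCAPs, 5289.9 in wFAPLs and 2386 in differentiating wFAPLs. In brown it was at 4964, 4889, 3676, 4654 and 4290.1 CPM in bAPC 1 to 5, 3633 in bCAPs and 5352 in bFAPLs. Leaving out the 15 differentiating wFAPLs, its highest cluster was 1.56 times its lowest, so type I message varied by less than 2-fold across the other 13. Col1a2 ran alongside, from 3745 CPM in bCAPs to 6234 in wAPC 4 and down to 1606 in differentiating wFAPLs. The ratio of Col1a1 to Col1a2 UMIs lay between 0.834 (wAPC 2) and 1.01 (bAPC 2) in 13 clusters and was 1.49 (1.35 to 1.63) in differentiating wFAPLs.

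Col3a1, the single chain of type III collagen, which joins type I in soft tissue fibrils, varied more. It was at 1489, 2038, 1549 and 2679 CPM in wAPC 1 to 4, 2152 in wCAPs, 3066 in wFAPLs and 1929 in differentiating wFAPLs. In brown it was at 1972, 1643, 1169, 1572 and 1399.9 CPM in bAPC 1 to 5, 1661 in bCAPs and 2938 in bFAPLs. Both FAPL clusters thus had the highest level of their library, 1.43 and 1.77 times that of the CAPs. Col5a1 and Col5a2, chains of type V collagen that is built into type I fibrils and limits their width, ranged from 351 to 679 and from 881 to 1415 CPM, each with bAPC 3 lowest and wAPC 4 highest. Col5a3, the third type V chain, was at 173 CPM in wAPC 4 and between 20.97 and 65.3 CPM in the other clusters. Col11a1, a chain of type XI collagen with a similar role in cartilage, ranged from 92.5 CPM in bAPC 2 to 289 in bFAPLs, and was at 52.4 in differentiating wFAPLs.

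The lesser fibrillar genes were Col27a1, at 13.66 to 46.1 CPM, and Col24a1, described with the differences between depots. Col2a1 and Col11a2, which belong to cartilage collagens, stayed under 10 CPM, with 6.34 CPM of Col2a1 in bCAPs as the highest value. The 6 chondrocyte markers summed to 42.4 to 114.5 CPM in clusters of over 15 cells, with 1 or 2 of them at 10 CPM or more. Promoter windows of Col1a2 and Col3a1, which carry the most abundant fibrillar messages with a RefSeq window here, are shown 5′ to 3′ on the gene's strand, from 250 bases before the annotated start to 50 bases from it on (build GRCm38.p6, chr6:4505368-4505667, plus strand, and chr1:45311288-45311587, plus strand). Capitals mark the CCAAT box, the GC box (GGGCGG) and the TATA box (TATAAA) on either strand. A window existed for 35 of the 44 genes, and Col1a1, Col2a1, Col4a3, Col5a2, Col9a3, Col12a1, Col14a1, Col22a1 and Col26a1 had none.
Col1a2: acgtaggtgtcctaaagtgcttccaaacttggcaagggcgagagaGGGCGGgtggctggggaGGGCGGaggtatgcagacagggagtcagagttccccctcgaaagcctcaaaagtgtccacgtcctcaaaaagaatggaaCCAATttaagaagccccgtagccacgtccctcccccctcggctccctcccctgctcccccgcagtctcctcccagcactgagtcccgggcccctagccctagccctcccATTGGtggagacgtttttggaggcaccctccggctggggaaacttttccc
Col3a1: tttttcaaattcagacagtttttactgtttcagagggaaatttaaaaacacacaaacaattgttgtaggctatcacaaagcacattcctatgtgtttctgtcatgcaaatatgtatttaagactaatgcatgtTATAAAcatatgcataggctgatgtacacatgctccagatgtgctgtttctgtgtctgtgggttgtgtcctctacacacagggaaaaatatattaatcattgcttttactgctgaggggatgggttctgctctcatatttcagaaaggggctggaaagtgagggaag
Positions are counted from the start as 1 and give a match's first letter. A match shows that the letters are present, and whether they act as that box was not tested. The Col1a2 window held the CCAAT box at -109 and, on the other strand, at 1, and the GC box at -205 and -188. These positions depend on the start used, which for Col1a2 was 4505618 in RefSeq and 4504814 in GENCODE M21. The Col3a1 window held 1 match, the letters TATAAA at -117. Of all 32851 windows, 37.4% held the CCAAT box, 35.7% the GC box and 13.6% the TATA box on either strand, against 34.2% (13), 60.5% (23) and 13.2% (5) of the 38 windows of collagen genes.

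Type IV collagen gave the widest differences between CAPs and FAPLs. Col4a1, which with Col4a2 encodes the chains of the common basement membrane network, was at 345, 247, 214 and 792 CPM in wAPC 1 to 4. It was at 264 CPM in wCAPs, 946 in wFAPLs and 1833 in differentiating wFAPLs. In brown it was at 226, 197, 172, 282 and 152 CPM in bAPC 1 to 5, 263 in bCAPs and 1269 in bFAPLs. Among precursor clusters of over 15 cells, bFAPLs, wFAPLs and wAPC 4 were therefore apart from all others, which lay at or under 345 CPM. Labelled glial cells held 604 CPM in white and 594 in brown. Col4a2 followed at 169.7 CPM in wCAPs, 561 in wFAPLs, 473 in wAPC 4, 167 in bCAPs and 672 in bFAPLs, and at 88.3 to 211 in the other APC clusters. Col4a1 had between 1.48 (wAPC 2) and 1.94 (differentiating wFAPLs) UMIs for each of Col4a2 in the 14 clusters.

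Few single CAPs reached the Col4a1 level of the median FAPL, although the clusters overlapped. The median wFAPL had 799 CPM of Col4a1 and the median wCAP 184, and 33 of 674 wCAPs (4.90%) exceeded the wFAPL median. The median bFAPL had 1142 CPM and the median bCAP 189, with 6 of 296 bCAPs (2.03%) above the bFAPL median. In white, the lower quartile of wFAPLs was 354 CPM and the upper quartile of wCAPs 349. In brown these quartiles were 582 CPM in bFAPLs and 375 in bCAPs. Within the 12 clusters of at least 100 cells, per-cell Col4a1 and Col4a2 had a median Spearman rho of 0.756 (0.662 to 0.902), the second highest of 190 pairs after Col1a1 and Col1a2 at 0.758 (0.704 to 0.802). Col1a1 and Col4a1, by contrast, had rho between -0.00246 and 0.196 in these clusters. Cells of a cluster share a library and differ in depth (rho of either gene with a cell's UMIs lay between -0.253 and 0.286), and these values are descriptions without a test.

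Col4a1 and Col4a2 lie head to head on chromosome 8, with annotated starts 21 bases apart, and their promoter windows shared 78 bases. They are shown because they cover the start sites of the pair that differed most between CAPs and FAPLs (GRCm38.p6, chr8:11312777-11313076, minus strand, and chr8:11312555-11312854, plus strand), with capitals as above.
Col4a1: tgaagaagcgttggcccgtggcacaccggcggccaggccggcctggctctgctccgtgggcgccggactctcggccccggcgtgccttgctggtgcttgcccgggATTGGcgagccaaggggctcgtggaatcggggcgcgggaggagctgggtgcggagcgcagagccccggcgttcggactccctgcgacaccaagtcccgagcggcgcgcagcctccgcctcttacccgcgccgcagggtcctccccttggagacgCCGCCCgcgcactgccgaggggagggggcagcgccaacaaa
Col4a2: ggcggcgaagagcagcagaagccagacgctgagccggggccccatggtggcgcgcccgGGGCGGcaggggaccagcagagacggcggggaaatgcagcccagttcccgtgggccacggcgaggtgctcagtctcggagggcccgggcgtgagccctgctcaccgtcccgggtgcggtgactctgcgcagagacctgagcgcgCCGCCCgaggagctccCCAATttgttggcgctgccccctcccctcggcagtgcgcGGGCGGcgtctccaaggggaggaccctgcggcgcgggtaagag
The Col4a1 window held the CCAAT box at -145 and the GC box at 10, both on the other strand. The Col4a2 window held the CCAAT box at -32 and the GC box at -192, -48 (other strand) and 8. The last of these and the Col4a1 match at 10 are the same bases, chr8:11312812-11312817. Of 8 pairs of neighbouring collagen genes within 200000 bases of each other, 3 were head to head, each a type IV pair. The other 2 of these pairs differed in level: Col4a5 had 27.5 (white) and 58.7 (brown) UMIs for each of Col4a6, whose gene lies 1309 bases away on chromosome X, while Col4a3 and Col4a4 stayed at or under 1.50 CPM in every cluster. Col4a5 itself ranged from 12.96 to 36.7 CPM.

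Col15a1 and Col18a1, whose products carry heparan or chondroitin sulphate and lie at the basement membrane zone, behaved differently from Col4a1. Col15a1 was highest in wAPC 4 at 230.4 CPM and lowest, among clusters of over 15 cells, in wAPC 2 at 14.2 and bAPC 5 at 17.96. It was at 86.0 CPM in wCAPs and 62.1 in wFAPLs, and at 72.0 in bCAPs and 47.4 in bFAPLs, so both FAPL clusters were lower than the CAPs. Col18a1 ranged from 11.1 CPM in bAPC 5 to 59.5 in wAPC 4 and was at 107 in differentiating wFAPLs.

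FAPLs were set against CAPs within each depot, the comparison of the fibro-adipogenic with the committed adipogenic population. Genes with at least 10 CPM in either cluster were compared, and a gene was counted as past 2-fold at a ratio of 2 or more. In white, Col4a1, Col4a2, Col8a1 and Col14a1 were higher in wFAPLs, 4 of 23 collagen genes, against 2.25% of all 9199 genes compared. Col24a1 was lower, 1 of 23, against 1.6% of all genes. In brown, Col4a1, Col4a2 and Col14a1 were higher in bFAPLs, 3 of 23, against 1.86% of all 9148 genes, and Col23a1 and Col28a1 were lower, 2 of 23, against 2.01%. The median log2 ratio of the collagen genes compared was -0.07 in white and 0.04 in brown, close to the -0.01 and -0.04 of all genes.

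Col4a1 was 1.84 higher on the log2 scale in wFAPLs (1.79 to 1.89) and 2.27 higher in bFAPLs (2.20 to 2.34). Col4a2 was 1.72 (1.66 to 1.79) and 2.01 (1.92 to 2.10) higher. Col14a1, a fibril-associated collagen of dense connective tissue, was at 77.8 CPM in wCAPs and 238 in wFAPLs, a log2 ratio of 1.61 (1.51 to 1.71), and at 47.3 and 182 CPM in bCAPs and bFAPLs, a ratio of 1.94 (1.78 to 2.11). These 3 genes had the same direction in both depots. Type I and III genes were under 2-fold, with log2 ratios of 0.03 and 0.56 for Col1a1, 0.11 and 0.73 for Col1a2 and 0.51 and 0.82 for Col3a1 in white and brown. Among the other fibrillar genes, Col24a1 had a white ratio of -1.58 (-1.87 to -1.30) and was under 10 CPM in both brown clusters, and Col5a3 had ratios of -0.89 in white and 0.11 in brown. Type VI genes, whose product forms beaded filaments, had white log2 ratios of -0.89 (Col6a1), -0.82 (Col6a2) and -0.56 (Col6a3), and brown ratios of -0.36, 0.04 and -0.13.

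**Figure D3:**
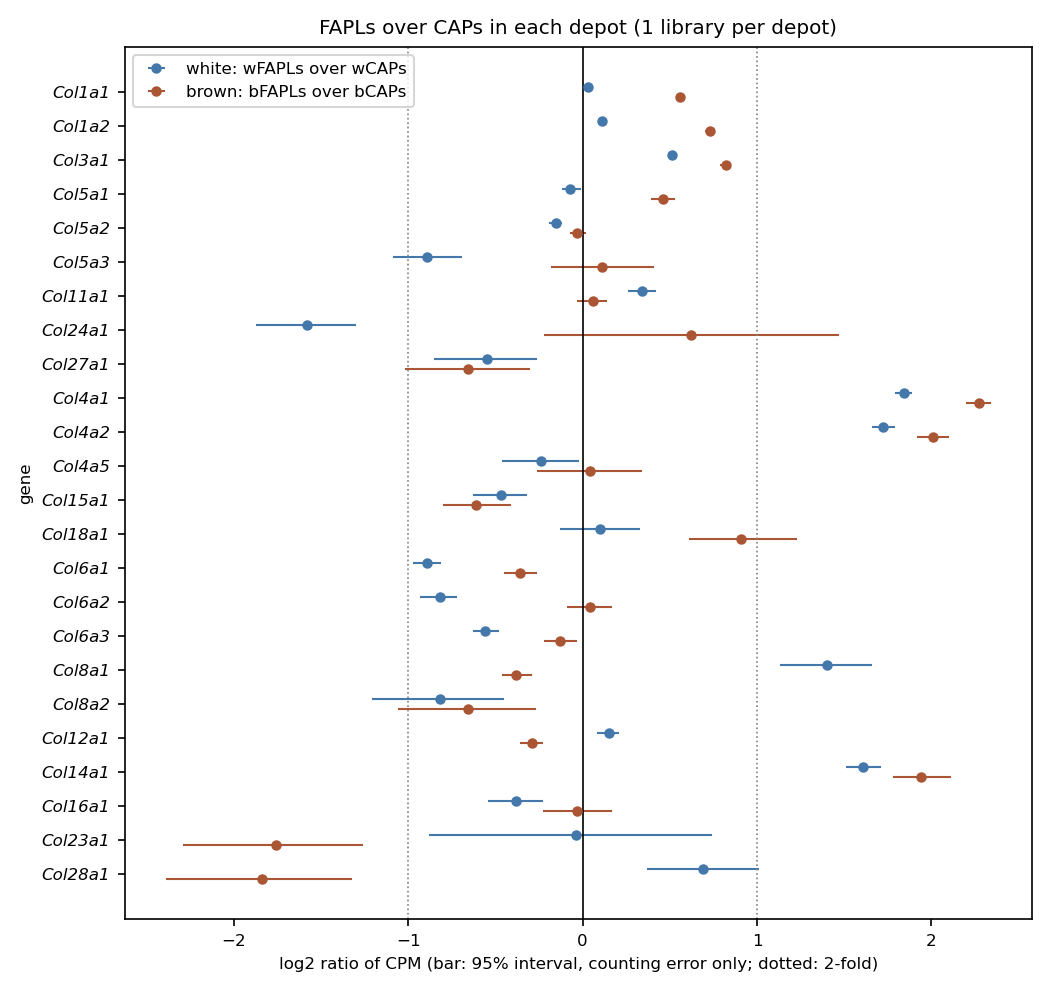
Log2 ratio of CPM in FAPLs over CAPs (x axis) for the collagen genes with 10 CPM in either cluster of a depot (rows), with white in blue and brown in red-brown; bars are 95% intervals for counting error only and dotted lines mark 2-fold. Col4a1, Col4a2 and Col14a1 lie beyond 2-fold in both depots, and Col8a1 and Col28a1 lie on opposite sides of 0.

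Markers of mural cells, the pericytes and smooth muscle cells of vessels, which also make type IV collagen, moved with the FAPL clusters. The 8 listed markers summed to 138 CPM in wCAPs and 766 in wFAPLs, and to 300.0 in bCAPs and 904 in bFAPLs, with all 8 at 10 CPM or more in both FAPL clusters. Their sum was 6968 CPM in differentiating wFAPLs and 131 to 572 in the APC clusters. Most of the FAPL sums came from Actg2 (370 CPM in wFAPLs, 519 in bFAPLs) and Cnn1 (118.5 and 131.3 CPM). Cnn1 was higher in wAPC 1 (130.7 CPM) than in wFAPLs and in bAPC 4 (216.6 CPM) than in bFAPLs. Cspg4 and Notch3 were higher in wAPC 4 (45.96 CPM each) than in wFAPLs (20.64 and 35.14 CPM). Myh11, Rgs5, Abcc9, Kcnj8 and Actg2 were higher in both FAPL clusters than in every APC and CAP cluster of their depot. Actg2, Cnn1, Cspg4 and Notch3 were not used in the choice of cells that follows. Among cells without a UMI of Myh11, Rgs5, Abcc9 or Kcnj8 (66 of 256 wFAPLs, 475 of 674 wCAPs, 101 of 279 bFAPLs and 181 of 296 bCAPs), Col4a1 was at 779.8 and 257 CPM in wFAPLs and wCAPs and at 776 and 267 in bFAPLs and bCAPs. The log2 ratios there were 1.60 in white and 1.54 in brown for Col4a1, and 1.40 and 1.55 for Col14a1, smaller than over all cells and past 2-fold. A cell without a UMI of these 4 genes may still express them, this choice of cells was made after seeing the data, and the part of mural cells in the result was not tested.

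Between depots, most collagen genes were close and a few were far apart. Over all labelled precursors, Col8a1 and Col23a1 were higher in brown, 2 of 25 collagen genes with at least 10 CPM in either depot, against 0.752% of all 9041 genes. Col24a1 was lower, 1 of 25, against 1.07% of all genes. The 9 fibrillar genes compared all had ratios below 0, with a median log2 of -0.15, and the median of all 25 was -0.14 beside -0.04 for all genes. That count goes by sign alone, and the share of all genes below 0 is not given here. The pooled clusters also differ in mix, with 674 wCAPs against 296 bCAPs. Between bFAPLs and wFAPLs, 3 of 9 fibrillar genes were above 0, with a median of -0.06. Col1a1 was at 4649.6 CPM in brown and 4961 in white, a log2 ratio of -0.09, and Col1a2 and Col3a1 had ratios of -0.14 and -0.13.

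Col8a1 encodes a short-chain collagen that forms hexagonal networks under endothelium and cornea. It was at 58.7, 22.7, 24.1 and 71.9 CPM in wAPC 1 to 4, 12.5 in wCAPs and 32.9 in wFAPLs. In brown it was at 167, 166, 251, 462 and 367 CPM in bAPC 1 to 5, 325 in bCAPs and 250.3 in bFAPLs. Every brown cluster was thus above those 6 white clusters, while the 15 differentiating wFAPLs were above all at 908 CPM. The log2 ratio of brown to white precursors was 2.65 (2.58 to 2.71), and 2.95 without the differentiating wFAPLs. Between CAPs it was 4.70 (4.51 to 4.90) and between FAPLs 2.93 (2.73 to 3.13).

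In single cells, 71.1% of brown and 19.7% of white precursors had a Col8a1 UMI, and after thinning each cell to 10000 UMIs 56.5% and 12.0% did. Myeloid cells gave 25.9% of 27 in brown and 7.14% of 14 in white (median 29269 and 25124 UMIs), and 11.1% and 7.14% when thinned. The wCAPs, with 5.64% of thinned cells, had no larger share than the white myeloid cells, whose share rests on 1 UMI. By summed level wCAPs were at 12.5 CPM and white myeloid cells at 2.58 CPM. Whether wCAPs lay above background was therefore not settled. The median bCAP had 168 CPM, which 12 of 674 wCAPs (1.78%) exceeded. Col8a2, the partner chain, was at 14.8 CPM in white and 23.1 in brown, so that Col8a1 had 2.60 UMIs for each of Col8a2 in white and 10.4 in brown.

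Col23a1, a transmembrane collagen, was at 2.23 to 8.25 CPM in 6 white clusters and without a UMI in differentiating wFAPLs. In brown it was at 38.9, 14.6, 40.4, 8.80 and 66.6 CPM in bAPC 1 to 5, 18.9 in bCAPs and 5.57 in bFAPLs. The log2 ratio of brown to white was 2.91 (2.70 to 3.13), with levels of 25.8 and 3.43 CPM. No UMI was found in 14 white myeloid cells, which allows up to 7.74 CPM, so the white level was not separable from background. Brown myeloid cells held 2.61 CPM.

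Col24a1, a minor fibrillar collagen found beside type I in bone and cornea, ran the other way. It was at 28.2, 72.0, 21.8 and 63.6 CPM in wAPC 1 to 4, 48.3 in wCAPs and 16.2 in wFAPLs. In brown it was at 13.69, 3.23, 8.44, 3.86 and 17.3 CPM in bAPC 1 to 5, 2.68 in bCAPs and 4.11 in bFAPLs. The log2 ratio of brown to white was -2.36 (-2.51 to -2.21), that of bCAPs to wCAPs -4.17 (-4.85 to -3.56), and bAPC 5 was above wFAPLs, so single clusters overlapped. White myeloid cells held 15.5 CPM, all in 1 of 14 cells, and brown myeloid cells had 0 UMIs in 27 cells, which allows 3.91 CPM. The levels in wFAPLs and in bAPC 2, bAPC 4, bCAPs and bFAPLs lay near those values. A second gene, D530037P16Rik, overlaps Col24a1 on the same strand and could share its reads.

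**Figure D4:**
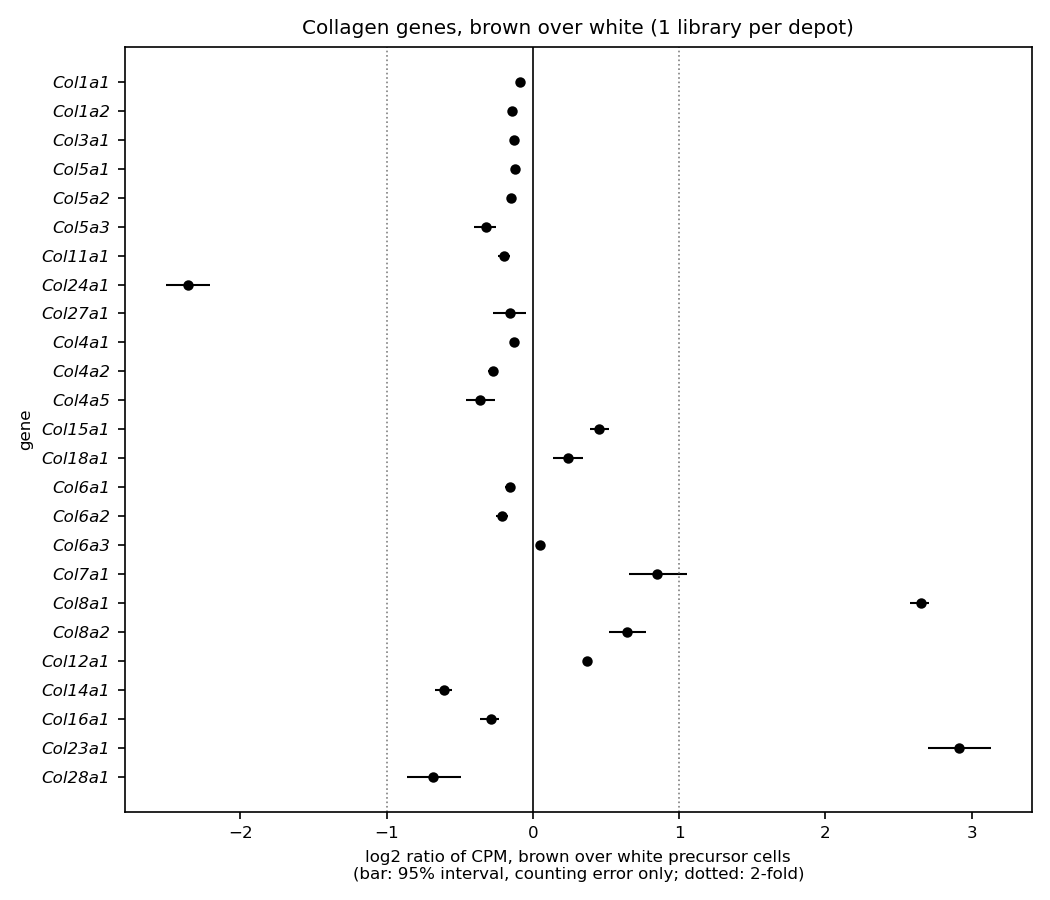
Log2 ratio of CPM in brown over white labelled precursor cells (x axis) for the 25 collagen genes with 10 CPM in either depot (rows); bars are 95% intervals for counting error only and dotted lines mark 2-fold. Only Col8a1, Col23a1 and Col24a1 lie beyond 2-fold, and the 9 fibrillar genes lie left of 0.

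Promoter windows of Col8a1 and Col24a1, the most abundant gene past 2-fold between depots in each direction, are shown in the same way (GRCm38.p6, chr16:57754688-57754987, minus strand, and chr3:145292222-145292521, plus strand).
Col8a1: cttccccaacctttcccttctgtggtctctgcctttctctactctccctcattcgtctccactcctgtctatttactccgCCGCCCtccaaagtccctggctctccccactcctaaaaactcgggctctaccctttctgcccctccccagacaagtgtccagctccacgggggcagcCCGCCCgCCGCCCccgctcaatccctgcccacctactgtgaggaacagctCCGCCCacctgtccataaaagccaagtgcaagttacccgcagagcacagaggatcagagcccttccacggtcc
Col24a1: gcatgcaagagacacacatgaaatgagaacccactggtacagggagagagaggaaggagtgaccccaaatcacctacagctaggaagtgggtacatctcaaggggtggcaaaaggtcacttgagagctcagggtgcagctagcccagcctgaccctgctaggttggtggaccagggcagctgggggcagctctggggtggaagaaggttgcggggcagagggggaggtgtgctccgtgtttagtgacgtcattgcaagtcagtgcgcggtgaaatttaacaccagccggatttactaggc
The Col8a1 window held the GC box on the other strand at -170, -73, -66 and -23. The Col24a1 window held none of the 3 motifs, which says only that these letters are not in this window. A further motif, TGANTCA, occurred in 1 of 38 windows of collagen genes and in 7.81% of all windows.

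Depots were also compared within a cell class, which reuses the clusters of the comparisons of FAPLs with CAPs. Between bFAPLs and wFAPLs, Col8a1 was higher, 1 of 23 collagen genes, against 0.646% of all 9136 genes, and Col24a1 (-1.98, -2.60 to -1.39) and Col28a1 (-1.80, -2.35 to -1.27) were lower, 2 of 23, against 1.04%. For Col24a1 this ratio turned to 2.54 after the myeloid level was subtracted, as wFAPLs at 16.2 CPM were close to the 15.5 CPM of white myeloid cells. For Col28a1, bFAPLs at 5.17 CPM lay under the 6.52 CPM of brown myeloid cells (5 UMIs). The bFAPL level of Col28a1 was thus not separable from background. Type I messages of both FAPL clusters were almost equal, at log2 ratios of 0.02 for Col1a1 and 0.00 for Col1a2, and Col4a1 was 0.42 higher in bFAPLs (0.38 to 0.47). Between bCAPs and wCAPs, Col8a1 and Col23a1 were higher, 2 of 24, against 2.14% of all 9235 genes, and Col5a3 (-1.43, -1.65 to -1.21) and Col24a1 were lower, 2 of 24, against 2.18%. Fibrillar genes had log2 ratios of -0.51 for Col1a1, -0.61 for Col1a2 and -0.37 for Col3a1, and 8 of 9 were below 0. Their median was -0.51 beside -0.01 for all genes, of which the share below 0 is not given here. Col4a1 and Col4a2 had CAP ratios of -0.01 (-0.08 to 0.06) and -0.03 (-0.12 to 0.07).

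**Figure D5:**
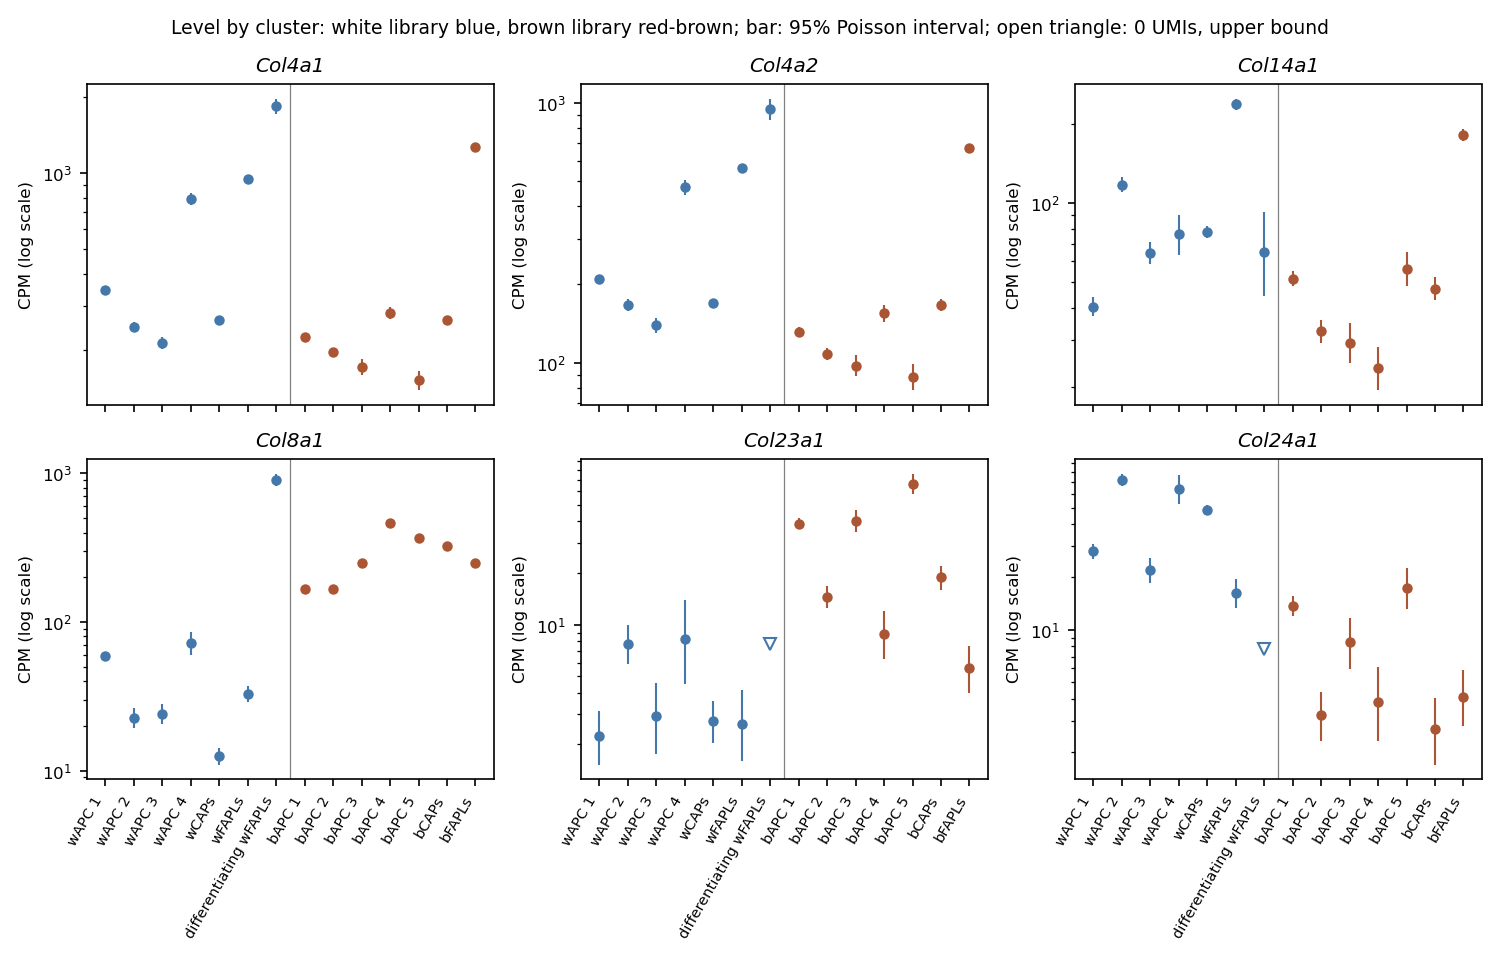
Level in CPM (y axis, log scale) of Col4a1, Col4a2, Col14a1, Col8a1, Col23a1 and Col24a1 in each cluster (x axis), with white in blue and brown in red-brown; bars are 95% Poisson intervals and open triangles the upper bound for 0 UMIs. Col4a1 is highest in FAPL clusters of both depots, Col8a1 lies above 6 white clusters in every brown cluster but is highest in differentiating wFAPLs, and for Col23a1 and Col24a1 the clusters of both depots overlap.

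Cluster wAPC 4, with 62 labelled cells, had the highest collagen share and many raised genes. Against the other white precursors, 7 of 24 collagen genes were past 2-fold higher, against 2.1% of all 9228 genes: Col4a1, Col4a2, Col5a3, Col6a3, Col7a1, Col15a1 and Col18a1. Col15a1 had the largest ratio, 2.08 on the log2 scale (1.93 to 2.24), followed by Col5a3 at 1.65 (1.47 to 1.82). Col4a5 was lower at -1.36 (-2.03 to -0.75), 1 of 24, against 2.98%. Col6a1, Col6a2 and Col6a3 were at 627, 381 and 744 CPM, the highest of the 14 clusters, and the median of the 24 genes was 0.59 on the log2 scale beside 0.01 for all genes. Of 4 osteoblast markers, Runx2 alone was found in wAPC 4, at 187 CPM against 57.9 to 101 for the list in the other white clusters of over 15 cells, and its part was not tested.

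Differentiating wFAPLs, with 15 cells, had the lowest type I level of the precursor clusters. Against the other white precursors, 11 of 23 collagen genes were past 2-fold lower, against 15.7% of all 9502 genes, and 4 were higher, against 9.06%. Those lower included Col1a2 at -1.79 (-1.90 to -1.69), Col11a1 at -2.00 (-2.63 to -1.44) and Col16a1, a fibril-associated gene, at -2.77 (-4.39 to -1.54). Col8a1 at 4.86 (4.71 to 5.01), Col4a1 at 2.28 (2.18 to 2.37), Col18a1 at 2.08 (1.65 to 2.48) and Col4a2 at 2.01 (1.87 to 2.14) were higher. The sum of the 8 mural markers was highest here too, at 6968 CPM, with Myh11 at 2522 CPM and Actg2 at 3470. Another of the 8, Cspg4, was at 4.19 CPM, its lowest level of the 14 clusters. The part of mural markers in these values was not tested.

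Type VI genes Col6a1, Col6a2 and Col6a3, besides wAPC 4, ranged from 212 to 431, 121 to 235 and 219 to 411 CPM in the clusters of over 15 cells. Both FAPL clusters were among the 4 lowest of the 13 for each. Col6a1 kept between 1.65 and 2.25 UMIs for each of Col6a2 in these clusters, and the type VI chains Col6a4, Col6a5 and Col6a6 stayed under 10 CPM. Col12a1, a fibril-associated collagen of tendon and stretched tissue, was at 288 to 418 CPM in white clusters of over 15 cells and 415 to 593 in brown. Tenocyte markers, of which 2 of 5 reached 10 CPM (3 in bAPC 5), summed to 98.4 to 185 CPM in those white clusters and 169 to 318 in brown, and their part was not tested. Col16a1 ranged from 44.96 to 87.8 CPM.

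The remaining clusters differed from the other precursors of their library in few genes. In white, 0 of 23 genes were higher in wAPC 1 (0.343% of all genes) and 1 lower, Col14a1 at -1.44 (1.27%). In wAPC 2, Col24a1 was higher at 1.06 (1 of 23 against 1.06%) and Col15a1 lower at -2.23 (1 of 23 against 0.718%). In wAPC 3, 0 were higher (0.188%) and Col28a1 was lower at -1.02 (1 of 23 against 1.74%). In wCAPs, 0 were higher (0.617%) and Col8a1 was lower at -2.05 (1 of 23 against 0.683%). In wFAPLs, Col4a1, Col4a2 and Col14a1 were higher (3 of 23 against 1.94%) and Col24a1 lower (1 of 23 against 1.18%).

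The brown clusters were set against the other brown precursors in the same way. In bAPC 1, Col24a1 was higher at 1.44 (1 of 24 against 0.233%) and 0 were lower (0.434%). In bAPC 2, Col4a1, Col4a2, Col11a1 and Col14a1 were past 2-fold lower than in the other brown precursors, 4 of 23 against 2.25% of all genes, and 0 were higher (0.0112%). In bAPC 3 Col4a1, Col4a2, Col14a1 and Col18a1 were lower, 4 of 23 against 1.61%, and 0 higher (0.299%). In bAPC 4, Col8a1 was higher at 1.06 (1 of 23 against 0.981%), and Col14a1 and Col23a1 were lower at -1.43 and -1.64 (2 of 23 against 0.68%). In bAPC 5, Col4a1, Col4a2, Col15a1 and Col18a1 were lower, 4 of 24 against 1.1%, and Col23a1 and Col24a1 higher, 2 of 24 against 1.35%. In bFAPLs, Col4a1, Col4a2 and Col14a1 were higher (3 of 23 against 1.93%) and Col7a1, Col8a2 and Col23a1 lower (3 of 23 against 1.05%). The bFAPLs were thus part of the cells against which the APC clusters were set. They held 9567 of the 20651 Col4a1 UMIs of brown precursors. No other brown cluster was above 282 CPM of Col4a1 or 167 CPM of Col4a2. Both values are under 2 times the levels in bAPC 2, bAPC 3 and bAPC 5. The calls of Col4a1 and Col4a2 as lower in those 3 clusters therefore rest on the bFAPLs in the pool. Col7a1, the anchoring fibril collagen that ties epithelium to dermis, was at 9.01 to 16.1 CPM in bAPC 1 to 5 and at 2.32 in bCAPs and 5.04 in bFAPLs. Col28a1, a collagen known from nerve, was at 18.5 CPM in bCAPs and 2.51 to 9.01 in the other brown clusters, a log2 ratio of bCAPs to the other brown precursors of 1.92 (1.62 to 2.22). Brown myeloid cells held 6.52 CPM of Col28a1, within the range of those other clusters. Col28a1 was the 1 of 24 genes higher in bCAPs (1.42% of all genes), and Col5a3 and Col7a1 were lower (2 of 24 against 0.816%).

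Glial cells had a collagen profile of their own. Their 6 listed markers summed to 2576 CPM in white and 1858 in brown, with 5 of 6 at 10 CPM or more, and to under 31.5 CPM in precursor clusters. Against white precursors, 6 of 24 collagen genes were past 2-fold higher in 20 glial cells, against 15.2% of all 9810 genes, and 12 lower, against 14.3%. Against brown precursors, 8 of 26 were higher in 22 cells, against 15.6% of all 9744 genes, and 11 lower, against 12.5%. Col18a1 was at 1573 and 1259 CPM, log2 ratios of 5.92 (5.79 to 6.05) and 5.36 (5.22 to 5.50), and Col28a1 at 196 and 183 CPM, ratios of 4.17 (3.84 to 4.49) and 4.75 (4.39 to 5.09). Col14a1, Col15a1, Col27a1 and Col9a3 were also higher in both, and Col9a3 had 9 UMIs in each. In brown alone, Col4a2 at 437 CPM (1.14, 0.93 to 1.34) and Col20a1 at 24.3 CPM (3.18, 2.15 to 4.06, 11 UMIs) were past 2-fold higher. Col9a3 in both depots, and Col20a1 and Col28a1 in brown, were under 10 CPM in precursors. They entered these comparisons through the glial cells alone, so they could not be called lower. Col4a1 stayed under 2-fold, at 0.63 in white and 0.73 in brown. Type I and III genes were lower in both, with Col3a1 at 308 and 415 CPM.

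In 8 brown myoblasts, whose 6 myogenic markers summed to 5006 CPM and whose precursor markers summed to 806 CPM, 6 of 29 collagen genes were past 2-fold higher than in brown precursors, against 12.2% of all 9524 genes, and 18 lower, against 21.7%. Col19a1, a fibril-associated gene, had 18 UMIs (74.0 CPM), Col26a1 had 13 (53.5 CPM) and Col25a1, a transmembrane gene known from developing muscle, had 8 (32.9 CPM). Each was under 5 CPM in every precursor cluster. Col2a1 had 5 UMIs, all in 1 cell, and Col13a1, a transmembrane gene of the neuromuscular junction, had 4. Col19a1, Col26a1, Col25a1, Col2a1 and Col13a1 were under 10 CPM in brown precursors. They entered the comparison through the myoblasts alone, so they could not be called lower. In 14 white myeloid cells, 19 of 23 collagen genes were past 2-fold lower, against 19.4% of all 10117 genes, and 1, Col18a1 at 196 CPM, was higher, against 20.1%. Its UMIs came from 6 of the 14 cells. Glial markers summed to 137 CPM in the same white myeloid cells, with 3 of 6 at 10 CPM or more, against 22.8 CPM in white precursors and 1.30 in brown myeloid cells, where Col18a1 was at 22.2 CPM. The part of these markers in the result was not tested. In 27 brown myeloid cells 21 of 23 were lower, against 19.7% of all 9866 genes, and 0 higher, against 17.9%.

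Genes that make, secrete, trim, cross-link and bind collagen were compared from a list of 45. Of these, 37 had at least 10 CPM in either depot, and 1 was past 2-fold higher in brown (0.752% of all genes) and 0 lower (1.07%). That gene was Pcolce2, an enhancer of propeptide removal, at 17.6 CPM in brown and 8.54 in white. In white FAPLs over CAPs 2 of 36 were higher (2.25% of all genes) and 0 lower (1.6%): Itga1, a collagen-binding integrin chain, at 119 and 41.6 CPM (1.51, 1.37 to 1.65), and Tll1, a procollagen C-proteinase, at 17.2 and 7.89 CPM. In brown 1 of 37 was higher (1.86%) and 0 lower (2.01%): Adamts2, the procollagen N-proteinase, at 302 and 124 CPM (1.28, 1.17 to 1.39). Between bFAPLs and wFAPLs 0 of 36 were higher (0.646%) and 0 lower (1.04%). Between bCAPs and wCAPs 2 of 37 were higher (2.14%), Tll1 at 1.55 (1.24 to 1.87) and Pcolce2 at 1.03 (0.68 to 1.37), and 1 lower (2.18%), Adamts2 at -1.13 (-1.22 to -1.03).

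By role, the list held 10 genes of prolyl hydroxylation, 6 of lysyl hydroxylation and glycosylation, 7 chaperones and secretion factors and 6 cross-linking genes. None of these with at least 10 CPM in either group passed 2-fold in these 5 comparisons. Genes under 10 CPM in both groups were not compared, among them Tgm2, at 3.77 CPM in wFAPLs and 0.722 in wCAPs. Serpinh1, the collagen chaperone HSP47, was at 1574 to 2006 CPM in the 14 clusters, and Sparc, a collagen-binding matrix protein, at 3727 to 5823. Lox, the main lysyl oxidase, was at 1292 CPM in bCAPs and 899 in bFAPLs, a log2 ratio of -0.52 (-0.57 to -0.48), and at 535 CPM in wAPC 4. Plod2, a lysyl hydroxylase, was at 209 and 217 CPM in wCAPs and wFAPLs and 164 and 222 in bCAPs and bFAPLs, above the 63.7 to 128 of the APC clusters. P4ha1, a prolyl 4-hydroxylase subunit, had a brown to white log2 ratio of -0.60 (-0.64 to -0.55).

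Among 4440 genes of enough level over the 13 clusters with at least 50 cells, the genes outside the family whose log2(CPM + 1) ran most like Col1a1 were Aebp1 (Pearson r = 0.894), Vat1 (0.868), Cd248 (0.859), Gna13 (0.845) and Arhgef2 (0.835). For Col4a1 they were Mfap5 (0.91), Agpat5 (0.90), Tmem30a (0.892), Foxp1 (0.891) and Tns1 (0.863). Within the family, only Col1a2, Col3a1, Col4a2, Col6a1, Col8a2, Col11a1, Col12a1, Col14a1 and Col15a1 were compared with these 2 genes. Among those, Col1a1 ran most like Col1a2 (0.964) and Col4a1 like Col4a2 (0.994). These values rank 13 points from 2 libraries and carry no test.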

How the data were processed

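Both libraries were 10x Genomics Chromium 3′ v3.1. The authors aligned reads and counted UMIs with Cell Ranger 7.0.1 and default parameters against mm10. They deposited raw counts per gene and captured cell, not normalized and before their later limits on cells. The 5261 white and 7009 brown barcodes equal the numbers of captured cells that the paper gives. Cell Ranger of this version also counts intronic reads by default. The authors' limits on genes (3900 to 7700), UMIs (6000 to 60000) and mitochondrial share (1.7 to 5%) left 4407 white and 6137 brown cells here, of which the label tables hold 4331 and 5958 precursors. Cluster labels were read from the study's label tables, of which only the first 1999 precursor cells per depot and the first rows of other cell types were at hand, so values of a cluster rest on part of its cells. All labelled precursors lay within the limits. Doublets were not called, and no doublet step is given in the sources used here.

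Counts were summed per cluster and divided by the cluster's UMIs (CPM), with exact Poisson intervals, and ratios of sums have conditional Clopper-Pearson intervals (Python 3.11.15, numpy 2.4.6, scipy 1.17.1, pandas 2.3.3). A gene entered a comparison at 10 CPM in either group, which a gene high in only 1 group passes through that group, and a ratio of at least 2 was counted as past 2-fold. Genes at 0 UMIs were set to 3 counts for such calls. Levels are given by cluster for genes at 50 CPM in a cluster, up to 10 genes are named per direction of a comparison, and genes under 50 CPM are named where a group has 10 CPM and 4 times the other precursors. Neighbouring genes come from GENCODE M21 on GRCm38, and promoter windows from RefSeq. No test was run, as there was 1 library per depot. The ratio, its interval and the 2-fold call were tested on simulated data with known folds. These were Poisson counts with changes of 4 times up or down and no variation among cells. They do not show how the intervals or calls hold with such variation or at ratios near 2. Gene lists, marker lists and comparisons were chosen with earlier results of these data known. Alternatives were per-cell means, thinning to 10000 UMIs, cells low in cell cycle genes, subtraction of the myeloid level, other denominators, thresholds and cluster weights.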

Additional observations from a re-analysis of the deposited data

Results flagged for a closer look

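Of 24 collagen genes that reached 10 CPM in a FAPL or CAP cluster of at least 1 depot (Col23a1 in brown alone and Col24a1 in white alone), 8 had log2 ratios above 0 in both, 8 below 0 in both, and 4 had opposite directions with both intervals clear of 0. The counts above and below 0 go by sign alone and include ratios near 0, such as -0.03 for Col5a2 in brown. The matching shares of all genes are not given here. The difference between depots was not tested for any of these collagen genes, since each depot had 1 library. Col5a1 had a log2 ratio of -0.07 in white (-0.12 to -0.01, counting error only) and 0.46 in brown (0.39 to 0.53). Col8a1 had 1.40 in white and -0.38 in brown, with levels of 12.4806 CPM in wCAPs and 324.881 in bCAPs. Col12a1 had 0.15 in white and -0.29 in brown. Col28a1 had 0.69 in white and -1.84 in brown, at 11.1397 and 17.9909 CPM in wCAPs and wFAPLs and 18.5298 and 5.17 in bCAPs and bFAPLs. Brown myeloid cells held 6.52 CPM of Col28a1 (5 UMIs), above the bFAPL level.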

How the results depend on the processing

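No paired analysis was possible because each depot had 1 library. Of 142 alternative values of 20 named ratios, 140 kept their direction and stayed past 2-fold. The brown over white ratio of Col8a1 was 0.81 on the log2 scale with equal weight for each cluster, where the 15 differentiating wFAPLs count as 1 of 7 white clusters. The ratio of bFAPLs over wFAPLs for Col24a1 turned to 2.54 after subtraction of the myeloid level, which in white rests on UMIs in 1 of 14 cells. The collagen share moved to 1.69% (per-cell mean), 1.69% (thinned), 1.81% (cells low in cycle genes), 1.49% (minus the myeloid level) and 1.65% (all cells within the limits) in white, and to 1.76%, 1.40% and 1.55% under the last 3 of these in brown. The cause was not tested. The cells low in cycle genes held only 1 of 171 bAPC 3 cells and 29 of 270 wAPC 3 cells.

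At 50 CPM, brown over white left 1 gene higher and 0 lower, wFAPLs over wCAPs 0 lower, bFAPLs over bCAPs 0 lower, bFAPLs over wFAPLs 0 lower, and bCAPs over wCAPs 1 higher and 1 lower, since fewer genes entered. At 1.5-fold, brown over white gave 4 higher and 3 lower, wFAPLs over wCAPs 5 lower, bFAPLs over bCAPs 6 higher and 5 lower, and bCAPs over wCAPs 4 higher and 10 lower. With equal cluster weight, brown over white gave 1 higher. In wFAPLs over wCAPs, cells low in cycle genes gave 2 lower and subtraction of the myeloid level 5 lower, and that subtraction gave 2 higher and 1 lower in bFAPLs over wFAPLs. Without the differentiating wFAPLs, or among cells without a UMI of 4 mural markers, counts stayed within 1.5 times. Both of these were chosen after seeing the data. The share of all genes past the fold at each of these settings is not given here. The counts therefore show only how the calls of collagen genes moved with the setting. Depth limits the small groups most: 0 UMIs, set to 3 counts, allow 12.3 CPM in 8 myoblasts and 6.29 CPM in differentiating wFAPLs.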
